A study of Mus musculus with 30 samples.

Results

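The 7 interferon-stimulated genes described here are Isg15, Ifit1, Ifit3, Irf7, Oasl2, Rsad2 and Cxcl10, taken by symbol from the 20321 genes of the expected-count and TPM tables, and all 7 symbols were found. Their RNA was measured in the amputated tip of hindlimb digit 3 (P3, the distal phalanx) of 30 adult male C57Bl/6 mice, aged 9 to 10 weeks. In every mouse at most 33% of the phalanx was removed, an extent from which the digit tip regrows, and digits were collected at 0, 3, 6, 12 and 24 h and on days 3, 7, 14 and 21. There were 3 mice at each time and 6 at 7 d. The 0 h mice were amputated too, so the baseline is a digit taken at surgery rather than a digit never cut. The dates in the sample titles form an earlier run of 16 mice and a later run of 14 mice, called the earlier and the later campaign here, and what the date marks is not given in the sources used here. The 3 h and 12 h groups are entirely of the earlier campaign and the 21 d group of the later. At 7 d, replicates 3, 4 and 6 are labelled left foot, and every other mouse right foot.

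Interferon-stimulated genes are switched on when cells sense an interferon. Type I interferon binds the receptor Ifnar1/Ifnar2, and the kinases Jak1 and Tyk2 pass the signal to a complex with Irf9 that binds a DNA element called ISRE. Interferon-gamma acts through Ifngr1/Ifngr2, Jak1 and Jak2, and its signal ends at another element, GAS. The products limit viruses, and such genes also respond to nucleic acids of damaged cells. The digit tip is mostly skin, nail and bone, into which leukocytes enter after a wound.

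The genes lie on 5 chromosomes of GRCm38. Isg15 (ENSMUSG00000035692, chromosome 4, 156199424 to 156200818, minus strand) encodes a ubiquitin-like protein that is attached to other proteins. Ifit1 (ENSMUSG00000034459, 34640871 to 34650009) and Ifit3 (ENSMUSG00000074896, 34583531 to 34588731) are neighbours on the plus strand of chromosome 19 and encode RNA-binding antiviral proteins. Oasl2 (ENSMUSG00000029561, chromosome 5, 114896936 to 114912234, plus strand) is an oligoadenylate synthetase-like gene, and Rsad2 (ENSMUSG00000020641, chromosome 12, 26442746 to 26456452, minus strand) encodes the antiviral enzyme viperin. Irf7 (ENSMUSG00000025498, chromosome 7, 141262706 to 141266481, minus strand) encodes a transcription factor of interferon genes. Cxcl10 (ENSMUSG00000034855, chromosome 5, 92346638 to 92348889, minus strand) encodes a chemokine that attracts T and NK cells through Cxcr3.

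Because the members are grouped by a shared response, their promoters were searched for the ISRE core GAAANNGAA (TTCNNTTTC on the other strand) and the GAS core TTCNNNGAA, on both strands, from 250 bases before to 50 after each start (RefSeq, GRCm38.p6). The ISRE core was found in 5 of the 7 promoters, and in 8.56% of 32851 promoters of the same length. Isg15, Ifit1 and Ifit3 held 3 matches each, Rsad2 and Cxcl10 held 1 each, and Irf7 and Oasl2 held 0. At least 2 matches were found in 3 members and in 0.624% of all promoters. No member held the GAS core, which 8.30% of all promoters hold. For the 5 promoters with a match, 60 bases are given 5′ to 3′ on the strand of the gene, with ISRE matches in capitals, overlapping ones run together. They are at chr4:156200856-156200915, chr19:34640767-34640826, chr19:34583357-34583416 (2 of its 3 matches), chr12:26456537-26456596 and chr5:92349061-92349120, in the order below.
Isg15: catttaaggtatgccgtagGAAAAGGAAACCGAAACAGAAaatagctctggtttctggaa
Ifit1: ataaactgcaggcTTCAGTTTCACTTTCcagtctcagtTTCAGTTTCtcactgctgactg
Ifit3: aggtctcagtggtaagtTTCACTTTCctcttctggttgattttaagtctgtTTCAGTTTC
Rsad2: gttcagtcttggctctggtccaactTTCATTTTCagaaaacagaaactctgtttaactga
Cxcl10: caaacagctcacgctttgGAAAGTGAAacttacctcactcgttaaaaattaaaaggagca
In Isg15 the matches began 78, 72 and 66 bases before the start, and in Ifit1 109, 103 and 84 bases before it. In Ifit3 they began 155, 121 and 102 bases before the start, and in Rsad2 119 and in Cxcl10 213 bases before it. These are matches of letters, and neither binding nor methylation was measured.

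Total expected counts (reads assigned to genes by RSEM) were 3167625 in the shallowest library, 16277816 in the deepest and 6103688 at the median. The tissue label fits its markers, with a median TPM (transcript abundance, scaled for gene length) of 7062 for Krt14 and 2996 for Krt5, both keratinocyte keratins, against 7.33 for the leukocyte gene Ptprc. Of the T cell genes, Cd3e was at 0 in 26 libraries and Cd3d in 2, and of those of plasmacytoid dendritic cells, Siglech was at 0 in 17 and Ccr9 in 1. Cxcr3 was at 0 in 26. One library stood apart: 7 d replicate 3 (left foot, later campaign) had a count in 12191 genes, against 13937 to 14830 in the other 5 mice at 7 d, at a total of 6046501. Of 1975 tested genes within the members' range of level, 32.5% were at 0 there, against 0.304% to 18.6% in the other 29 libraries. This library held 0 counts of 6 of the 7 members, all but Ifit1, so the members' fold changes at 7 d are also given without it. In RNA of whole tissue, fewer cells of a type and less RNA per cell cannot be told apart.

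All 7 genes were near the lower end of what these libraries can measure. Median TPM over 30 mice was 7.38 for Isg15, 6.21 for Ifit3, 3.27 for Irf7, 1.81 for Oasl2, 1.76 for Rsad2, 1.21 for Ifit1 and 0.17 for Cxcl10. In this order, the ranges of neighbours overlap, from 0 to 30 TPM for Isg15, 0 to 15.3 for Ifit3, 0 to 8.11 for Irf7, 0 to 6.80 for Oasl2, 0 to 5.25 for Rsad2, 0.18 to 5.45 for Ifit1 and 0 to 4.99 for Cxcl10. Median expected counts were 34.2 for Ifit3, 20.8 for Rsad2, 18.5 for Oasl2, 17.5 for Irf7, 15.1 for Isg15, 11.0 for Ifit1 and 1 for Cxcl10. Cxcl10 was at 0 in 14 libraries, Ifit3 and Rsad2 in 2, Isg15, Irf7 and Oasl2 in 1, and Ifit1 in none. The plot of the 7 genes by mouse shows this scatter.

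Of the 20321 genes, 13793 passed the filter on low counts and were tested, 6 members among them and Cxcl10 not. Over the 9 times, none of the 6 was called (edgeR, adjusted p under 0.05), whereas 9.01% of all genes tested were. At an unadjusted p under 0.05 the count was also 0, against 24.1% of all genes, and DESeq2 and limma gave 0 adjusted calls. The lowest adjusted p over the course was 0.410, for Ifit1, and the highest was 0.971, for Ifit3.

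Against 0 h, none of the 48 fold changes (6 genes at 8 times) was called. The share of all genes called was 0.254% at 3 h, 0.189% at 6 h, 0.167% at 12 h, 0.493% at 24 h, 0.551% at 3 d, 2.34% at 7 d, 1.61% at 14 d and 1.94% at 21 d. At an unadjusted p under 0.05, edgeR gave 1 of the 48, Ifit1 at 6 h, where 7.24% of all genes passed and 6.66% to 13.3% did over the 8 times. DESeq2 gave 1 each at 6 h, 3 d and 7 d, while neither DESeq2 nor limma gave an adjusted call. The median log2 fold change of the 6 genes was -0.47 at 3 h, -0.37 at 6 h, 0.14 at 12 h, -0.60 at 24 h, -0.12 at 3 d, 0.12 at 7 d, -0.12 at 14 d and 0.12 at 21 d, where the median over all tested genes stayed within 0.02 of 0. At 6 h all 6 were below 0, and at every other time some were above and some below. The highest upper limit of any 95% confidence interval was 2.52, for Ifit3 at 3 h, so rises above that on the log2 scale lie outside all 48 intervals.

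Steps between neighbouring times gave 0 called members as well. The share of all genes called was 0.16% from 3 h to 6 h, 0% from 6 h to 12 h, 0% from 12 h to 24 h, 0.0653% from 24 h to 3 d, 0.0145% from 3 d to 7 d, 0.435% from 7 d to 14 d and 0% from 14 d to 21 d. Unadjusted p was under 0.05 for 0 members by edgeR, against at least 1.96% of all genes at each step, and for 1 by DESeq2, from 6 h to 12 h, with 0 adjusted calls by DESeq2 and limma.

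**Figure D1:**
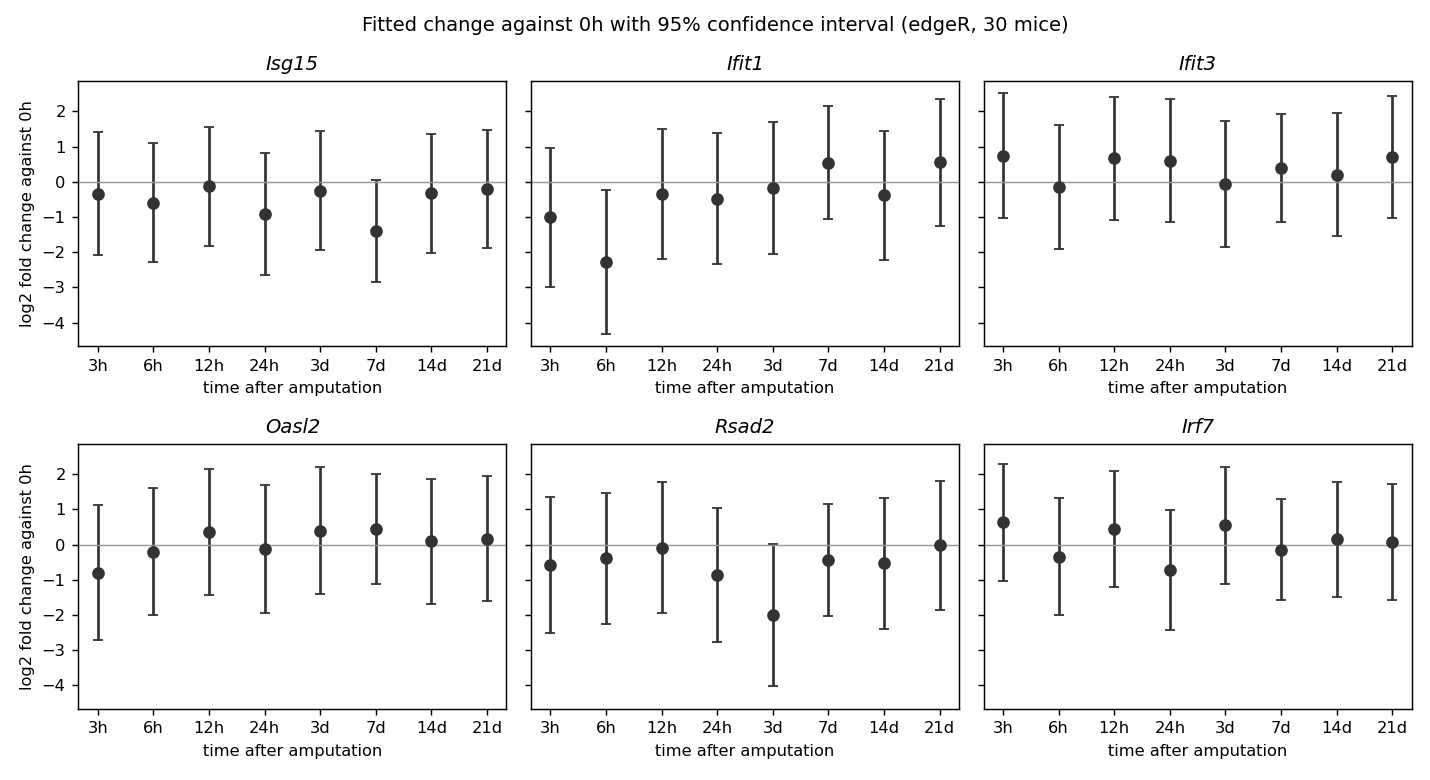
Fitted log2 fold change against 0h (vertical axis) with its 95% confidence interval for 6 of the genes at 8 times after amputation, from edgeR's fit of 30 mice. Every interval holds 0 except that of Ifit1 at 6h, -4.33 to -0.22, whose adjusted p is 0.598.

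Isg15, the ubiquitin-like modifier, had the highest median level. Its CPM was 3.44, 5.44 and 4.32 in replicates 1 to 3 at 0 h, 1.22, 2.0 and 7.59 at 3 h and 2.21, 4.66 and 1.76 at 6 h. At 12 h it was 1.79, 0.544 and 9.79, at 24 h 2.65, 2.20 and 2.10 and at 3 d 5.70, 1.47 and 3.64. At 7 d it was 1.29, 1.52, 0, 3.97, 1.41 and 1.74, at 14 d 2.30, 4.84 and 3.29 and at 21 d 2.96, 4.70 and 3.76. Thus the highest values came from single mice, replicate 3 at 3 h and at 12 h, whose companions were below the 0 h mice. All 3 mice at 24 h were under all 3 at 0 h, 2.32 ± 0.291 against 4.40 ± 1.0 CPM (SD, n = 3 each), a fitted log2 difference, with its standard error (SE), of -0.92 (SE 0.85, adjusted p = 0.80). It was 1 of 6 members without overlap at 24 h, where 17.8% of all tested genes showed none. At 7 d the mean was 1.66 ± 1.29 (SD, n = 6), a log2 fold change of -1.39 (SE 0.71, adjusted p = 0.403), and without replicate 3 it was -1.13 (SE 0.64, adjusted p = 0.490). In the earlier campaign the 7 d mice had 1.29 and 1.52 CPM against 4.32 at 0 h, and in the later campaign 0 to 3.97 against 3.44 and 5.44, which overlap. Without 12 h replicate 3 the log2 fold change at 12 h went from -0.12 to -1.88, and without 3 h replicate 3 that at 3 h went from -0.34 to -1.44, neither called. Of its 31-base words, 12.8% also occur in other genes, mostly in AC151275.1 (10.2%).

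Ifit1, which binds RNA that lacks the cap marks of the host, was lowest at 6 h. Its CPM at 0 h was 1.60, 3.84 and 1.1, at 3 h 0.612, 1.56 and 1.1 and at 6 h 0.294, 0.304 and 0.783. It was 1.93, 2.54 and 0.687 at 12 h, 2.96, 0.784 and 0.935 at 24 h and 1.38, 2.64 and 1.94 at 3 d. Late values were 5.18, 3.54, 7.39, 1.9, 1.28 and 0.158 at 7 d, 2.30, 1.75 and 1.04 at 14 d and 0.648, 1.93 and 7.18 at 21 d. All 6 h mice were under all 0 h mice, also within each campaign (0.294 and 0.783 against 1.1 in the earlier, 0.304 against 1.60 and 3.84 in the later). This rests on few expected counts, 2.39, 2.85 and 4 in replicates 1 to 3 at 6 h against 19.7, 35.8 and 7 at 0 h. Means were 0.461 ± 0.279 and 2.19 ± 1.45 CPM (SD, n = 3 each), a fitted fold of 0.207 and a log2 fold change of -2.27 (SE 1.0, adjusted p = 0.598). Its 95% confidence interval was -4.33 to -0.22 and its unadjusted p by edgeR 0.0310. It was the only member of 6 without overlap at 6 h, where 17.8% of all tested genes showed none. At 7 d and 21 d the mice spread from 0.158 to 7.39 and from 0.648 to 7.18 CPM. At 7 d the log2 fold change was 0.54 (SE 0.79, adjusted p = 0.846), and without replicate 3 it was 0.10 (SE 0.77, adjusted p = 0.983). Without 21 d replicate 3 the log2 fold change at 21 d went from 0.55 to -0.75, neither called. Ifit1 shares 10.5% of its 31-base words with other genes, mostly Ifit1bl2 (9.16%) and Ifit1bl1 (5.23%).

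Ifit3, the partner of Ifit1 in the same protein family, had the most counts and the least certain ones. CPM at 0 h was 3.52, 5.22 and 2.88, at 3 h 7.13, 2.90 and 9.76 and at 6 h 6.48, 3.85 and 0. Levels were 4.41, 4.71 and 9.45 at 12 h, 2.80, 8.0 and 7.01 at 24 h and 3.54, 2.94 and 4.61 at 3 d. They were 6.47, 5.57, 0, 6.66, 5.78 and 6.17 at 7 d, 6.89, 4.01 and 2.69 at 14 d and 1.94, 3.99 and 13.2 at 21 d. The times overlap throughout, and 21 d replicate 3 was the highest of the 30 mice. Means were 3.87 ± 1.21 at 0 h (SD, n = 3), 5.11 ± 2.54 at 7 d (SD, n = 6) and 6.39 ± 6.01 at 21 d (SD, n = 3). Log2 fold changes were 0.39 (SE 0.75, adjusted p = 0.889) at 7 d, where it was 0.65 (SE 0.64, adjusted p = 0.768) without replicate 3, and 0.70 (SE 0.85, adjusted p = 1.0) at 21 d, where it was -0.38 without replicate 3.

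Ifit3 shares 61.8% of its 31-base words with Ifit3b, a near copy listed in the tables as I830012O16Rik, so how reads were divided between the copies is uncertain. In 3 libraries 1 copy was at 0 and the other not. At 6 h, replicate 3 had 0 counts of Ifit3 and 30.4 of Ifit3b, and 7 d replicate 3 had 0 and 73.0. At 3 h, replicate 3 had 27 counts of Ifit3 and 0 of Ifit3b. The 2 copies were therefore also summed, a choice made after these values were seen. Summed CPM ran from 3.06 to 32.3, with a median of 9.57 and the highest value again in 21 d replicate 3. For the sum, the log2 fold change was 0.25 (SE 0.48, adjusted p = 0.890) at 7 d and 0.56 (SE 0.54, adjusted p = 0.982) at 21 d, and the course had an adjusted p of 0.859. No library was at 0 for the sum.

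**Figure D2:**
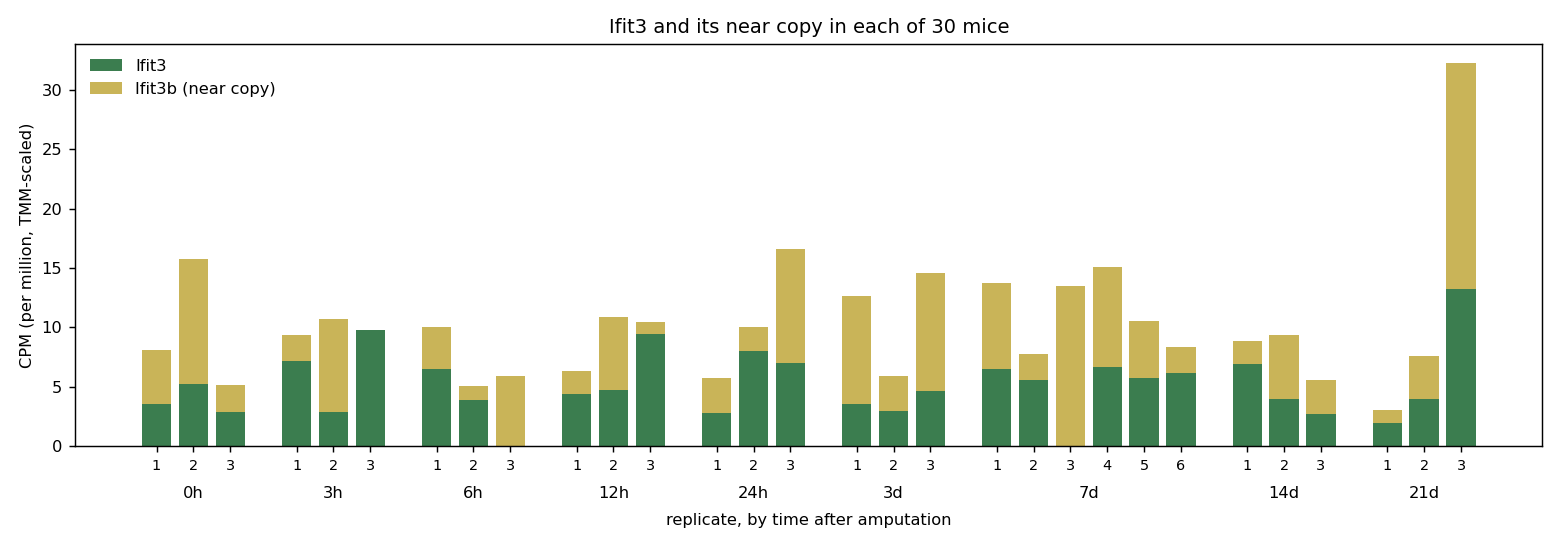
Stacked bars of the CPM of Ifit3 and of its near copy Ifit3b (vertical axis from 0) in each of the 30 mice, ordered by time after amputation and replicate. The share of the pair given to Ifit3 differs between mice, and is 0 in 6h replicate 3 and 7d replicate 3, where the copy holds counts.

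Oasl2, from the family of enzymes that sense double-stranded RNA, showed no time at which its mice stood apart from 0 h. Its CPM was 1.84, 5.12 and 1.92 at 0 h, 0.408, 2.0 and 2.89 at 3 h and 2.36, 2.43 and 2.94 at 6 h. At 12 h it was 1.79, 4.89 and 4.81, at 24 h 2.34, 2.20 and 3.74 and at 3 d 3.34, 0.294 and 8.01. Later it was 4.14, 8.10, 0, 3.17, 2.05 and 6.80 at 7 d, 3.00, 3.70 and 2.77 at 14 d and 1.94, 2.06 and 6.04 at 21 d. The 3 mice at 3 d alone span nearly the whole range of the series. Means were 2.96 ± 1.87 at 0 h and 3.88 ± 3.89 at 3 d (SD, n = 3 each), a log2 fold change of 0.39 (SE 0.88, adjusted p = 0.998), which was -0.58 without 3 d replicate 3. At 7 d the mean was 4.04 ± 3.00 (SD, n = 6) and the log2 fold change 0.45 (SE 0.77, adjusted p = 0.875), or 0.71 (SE 0.65, adjusted p = 0.748) without replicate 3.

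Rsad2, the radical enzyme that makes a chain-ending nucleotide against viruses, was lowest at 3 d. CPM in the 0 h mice was 3.04, 6.93 and 4.16, at 3 h 1.83, 2.0 and 5.78 and at 6 h 3.09, 4.46 and 3.13. It reached 4.82, 3.26 and 5.15 at 12 h, 0.779, 2.67 and 4.44 at 24 h and 2.06, 1.18 and 0 at 3 d. The 7 d mice had 2.07, 0.844, 0, 4.92, 6.16 and 6.64, those at 14 d 4.77, 2.57 and 2.51 and those at 21 d 1.02, 3.09 and 9.92. All 3 d mice were under all 0 h mice, in the earlier campaign (1.18 and 0 against 4.16) and in the later (2.06 against 3.04 and 6.93). Means were 1.1 ± 1.04 and 4.71 ± 2.0 CPM (SD, n = 3 each), a log2 fold change of -1.99 (SE 0.99, adjusted p = 0.761) with a 95% confidence interval of -4.01 to 0.03. Without 3 d replicate 1 it was -3.02, with an adjusted p of 0.425. At 7 d it was -0.43 (SE 0.78, adjusted p = 0.879), and -0.17 (SE 0.68, adjusted p = 0.966) without replicate 3. No other member of the 6 lacked overlap at 3 d, where 15.2% of all tested genes showed none. At 21 d replicate 3 was the highest of the 30 mice, and without it the log2 fold change at 21 d went from -0.02 to -1.18, neither called.

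Irf7, the factor that amplifies interferon output, had values of 3.36, 1.49 and 3.20 CPM at 0 h, 3.47, 6.03 and 2.89 at 3 h and 1.91, 2.94 and 1.37 at 6 h. They were 2.48, 3.81 and 4.64 at 12 h, 2.49, 1.57 and 0.701 at 24 h and 3.64, 6.76 and 1.46 at 3 d. From then on they were 3.37, 2.87, 0, 2.70, 0.642 and 5.06 at 7 d, 3.53, 2.98 and 2.43 at 14 d and 0.926, 2.57 and 5.02 at 21 d. Every time overlaps 0 h. The lowest mean was 1.59 ± 0.896 at 24 h and the highest 4.13 ± 1.67 at 3 h, against 2.68 ± 1.04 at 0 h (CPM, SD, n = 3 each). Log2 fold changes were -0.73 (SE 0.83, adjusted p = 0.851) at 24 h and 0.63 (SE 0.81, adjusted p = 0.823) at 3 h. At 7 d it was -0.14 (SE 0.70, adjusted p = 0.965), and 0.12 (SE 0.59, adjusted p = 0.976) without replicate 3. Irf7 shares no 31-base word with another gene, but its exons overlap 45 bases of Phrf1 on the opposite strand, and whether the counting used strand is not given in the sources used here.

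Cxcl10, the chemokine, was the one member with no count in any mouse at 0 h and at 3 h. Its counts were 0, 1 and 1 at 6 h, 2, 0 and 0 at 12 h and 0, 1 and 4 at 24 h. They were 3, 8 and 3 at 3 d, 5, 0, 0, 6, 13 and 0 at 7 d, 7, 6 and 3 at 14 d and 1, 0 and 2 at 21 d. All 3 mice at 3 d and at 14 d held counts, as did 3 of 6 at 7 d. Summed over the mice of a time there were 0 counts of 28822829 at 0 h, 14 at 3 d, 24 at 7 d, 16 at 14 d and 3 at 21 d. Set against a floor of 3 counts over the 0 h group, the pooled level was 7.42-fold that floor at 3 d, 6.32-fold at 7 d and 5.57-fold at 14 d. Only the 0 h side is set at a floor there, so these ratios are not lower bounds. The later counts have exact Poisson 95% intervals of 7.65 to 23.5, 15.4 to 35.7 and 9.15 to 26.0, for counting error alone and not for the spread between mice. Means were 1.1 ± 1.1 CPM at 3 d, 0.704 ± 0.494 at 14 d (SD, n = 3 each) and 0.653 ± 0.750 at 7 d (SD, n = 6). Both mice of the earlier campaign at 3 d averaged 1.54 CPM and the later one had 0.295, against 0 at 0 h in both campaigns.

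These Cxcl10 levels did not pass the tests. An exact two-sided permutation test gave p = 0.1 at 3 d and at 14 d against 0 h (n = 3 each), the smallest p that this design allows, 0.476 at 7 d, and 0.4 at 24 h and at 21 d. Without replicate 3 at 7 d, the exact permutation test gave p = 0.357 (n = 5 and 3). Over all times, a permutation test of F with 100000 resamples gave p = 0.101 over 30 mice, 0.0998 within campaigns and 0.0682 without 7 d replicate 3. With no filter on low counts, edgeR gave an unadjusted p of 0.0479 and an adjusted p of 0.234 over the course, and adjusted p of 0.463 at 3 d, 0.236 at 7 d and 0.375 at 14 d. Against 0 h, edgeR's unadjusted p for Cxcl10 was 0.0378 at 24 h, 0.00811 at 3 d, 0.0123 at 7 d and 0.0141 at 14 d. At the other times it was above 0.05. DESeq2 without the filter gave an unadjusted p of 0.00806 at 3 d, 0.0113 at 7 d and 0.0192 at 14 d, and above 0.05 otherwise. Its adjusted p at 3 d was 0.30. The exons of Cxcl10 overlap 133 bases of Art3 on the opposite strand, so single counts may belong to either gene.

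The spread between mice of 1 time was large for these genes. Their biological coefficients of variation, the spread beyond counting error in edgeR's fit, were 59.0% for Irf7, 63.6% for Isg15, 66.9% for Oasl2, 67.6% for Ifit3, 69.3% for Ifit1 and 71.3% for Rsad2. The median over all tested genes was 28.3%, and over genes of like level 58.7% for Irf7 and 69.2% for Ifit1. For Ifit3 and Rsad2 the genes of like level had medians of 46.4% and 53.6%, and for Isg15 and Oasl2 56.0% and 55.6%.

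Between campaigns, with time in the model, 0 of the 6 members were called by edgeR, DESeq2 or limma, and 0 had an unadjusted p under 0.05 by edgeR or DESeq2, where edgeR called 24.1% of all genes and 34.2% passed unadjusted. Adjusted p ran from 0.303 (Rsad2, later minus earlier 0.79 on the log2 scale, SE 0.52) to 0.894 (Ifit3). The interaction of campaign with time could be fitted for 21 mice at 6 times, and 0 of 6 members were called by edgeR, or had an unadjusted p under 0.05, against 0.877% of all genes called and 12.9% unadjusted; the lowest adjusted p was 0.943.

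Whether the genes vary together was asked among mice of the same time, with each time's mean of log2(CPM + 1) removed. Over the 15 pairs of the 6 tested members, Pearson's r ran from -0.33 (Isg15 and Ifit1) to 0.65 (Ifit3 and Rsad2), with a median of 0.34, and 10 were above 0. Of all 21 pairs, Ifit3 and Rsad2 alone passed, with r = 0.65 (permutation p = 0.0007, adjusted p = 0.0147) and Spearman's rho = 0.62 (permutation p = 0.00071, adjusted p = 0.0149). The pair did not pass in any of the following alternatives. Without the 2 farthest from the median, 7 d replicate 3 and 6 h replicate 3, r was 0.60 (adjusted p = 0.238), and without the first alone 0.49 (adjusted p = 0.176), when the median of the 15 fell to 0.15. Within the earlier campaign (14 mice) r was 0.31 (adjusted p = 0.683) and within the later (11 mice) 0.98 (permutation p = 0.0152, adjusted p = 0.106). With the 2 copies of Ifit3 summed it was 0.39 (adjusted p = 0.393).

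The genes whose levels were most like the mean of the members' standardized levels over 30 mice were Rexo1 (r = 0.74), Cep290 (0.70), Filip1l (0.69), Taz (0.68), Atrx (0.68), Egfl8 (0.66), Klhl29 (0.66), Mettl5 (0.65), 9930111J21Rik1 (0.64) and Fam219a (0.64). This is a description over libraries that differ in depth. Without 7 d replicate 3, which is at 0 for most members, the same genes gave 0.33 to 0.62, and of the 10 likest genes found then, 2 were among these, Klhl29 (0.62) and Rexo1 (0.56), and the antiviral gene Mx2 (0.56) entered. Over 30 mice, Ifit1 itself had r = 0.10 with the members' mean and the other 5 members 0.62 to 0.78. Each member is part of that mean, which raises its own r, so these values cannot be set beside those of other genes.

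The other genes of the pathway, 110 in the tables besides the members, were read by role, and 83 of them were tested. Of these, 4 (4.82%) were called over the course, under the 9.01% of all genes: Ifitm3, Irf3, Gbp2 and Tyk2. Against 0 h, edgeR without covariates called Ifitm3 alone, at 3 d and at 7 d, higher at both, and with campaign as a covariate it also called Tyk2 at 24 h and Irf3 at 7 d. The median log2 fold change of the 83 was 0.36 at 3 d and 0.26 at 7 d, where that of all genes was -0.01 at both times. At 3 h, 6 h and 12 h the 83 had medians of 0.015, 0.091 and 0.19, against -0.015, -0.0066 and 0.011 for all genes. At 24 h, 14 d and 21 d the medians were 0.21, 0.18 and 0.0094, against 0.0074, -0.0039 and -0.0044 for all genes. At these 6 times against 0 h, 0 of the 83 were called by edgeR without covariates, with 4 to 11 at an unadjusted p under 0.05. DESeq2 called 1 of them there, Cd274 at 24 h, and limma on log2(TPM + 1) 0, while limma on log2(TPM + 0.1) called Dhx58 at 3 h. Without the left-foot mice, edgeR also called Lgals3bp at 7 d and 14 d. Lgals3bp was called at 14 d as well without 7 d replicate 3 and in a fit of 0 h and 14 d alone.

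**Figure D3:**
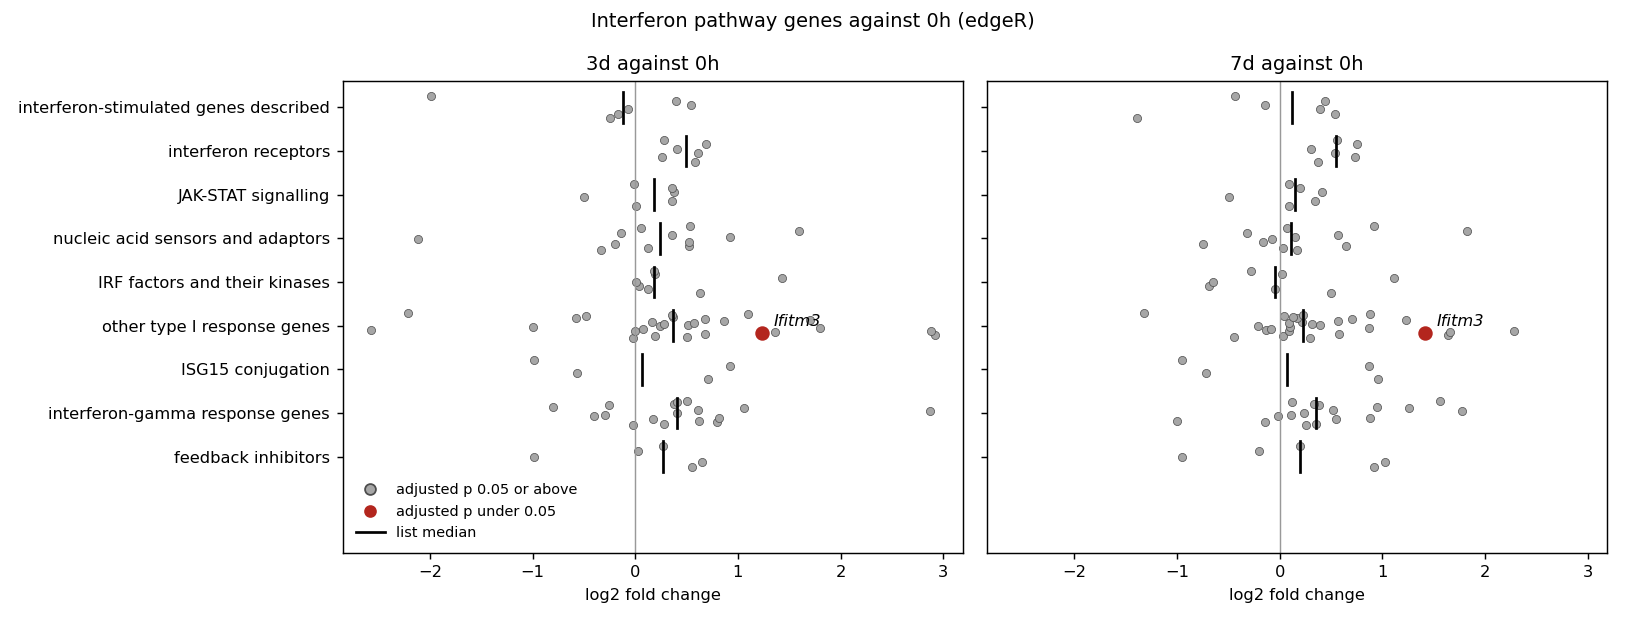
Log2 fold change (horizontal axis) of the tested genes of each interferon pathway list at 3d and 7d against 0h, with black lines for list medians and red points for an adjusted p under 0.05. Ifitm3 is the one red point, at 1.24 and 1.42, and the genes described above lie on both sides of 0.

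The inducers were almost absent. Of 19 interferon ligand genes in the tables, 17 had 0 counts in all 30 libraries, among them Ifnb1 and Ifng, and Ifnab and Ifnk had 5 counts in 1 library each. None could be tested. Cxcr3, the receptor of Cxcl10, was at 0 in 26 libraries and was not tested either. At these depths, low or local transcription of a ligand was not detectable.

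The receptors and kinases were present in every library. Of 6 receptor genes, 0 were called over the course by edgeR and 1 had an unadjusted p under 0.05, DESeq2 called Il10rb, as did edgeR without the left-foot mice or 7 d replicate 3, and edgeR with campaign as a covariate called Ifngr1. The lowest adjusted p by edgeR were 0.0730 for Il10rb, a subunit shared with interleukin receptors, and 0.239 for the lambda receptor Ifnlr1. Among 6 genes of JAK-STAT signalling, 1 was called, the kinase gene Tyk2 (adjusted p = 0.0437). Its CPM was 14.9, 16.0 and 22.6 at 0 h, 25.9, 21.6 and 27.0 at 12 h and 7.79, 11.4 and 4.91 at 24 h, so that 12 h was highest and 24 h lowest. All 12 h mice are of the earlier campaign, and Tyk2 was lower in the later campaign (-0.59 on the log2 scale, SE 0.15, adjusted p = 0.00527). The call over time was lost in 22 of 30 fits that left out 1 mouse.

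Of 12 tested sensors of nucleic acids and their adaptors, 0 were called by edgeR and 2 had an unadjusted p under 0.05, while DESeq2 called Dhx58 and Myd88 and limma on log2(TPM + 1) Dhx58. The lowest adjusted p were 0.0657 for Dhx58, a helicase that binds viral RNA, and 0.139 for Myd88, the adaptor of Toll-like receptors. Among 7 IRF factors and their kinases, Irf3, which acts upstream of interferon genes, was called (adjusted p = 0.00609), and the call held in 30 of 30 fits without 1 mouse. Its CPM was 23.5, 24.3 and 34.4 at 0 h, 38.7, 38.1 and 39.3 at 12 h and 12.4, 27.2, 14.4, 18.4, 16.0 and 13.1 at 7 d. The 12 h mice, all of the earlier campaign, were above every mouse of every other time, and the lowest mean was 16.9 ± 5.46 CPM at 7 d (SD, n = 6), against 27.4 ± 6.07 at 0 h (SD, n = 3). The share of all tested genes so separated at 12 h is not given here. For Irf3 over the course, edgeR gave an adjusted p of 0.0181 with campaign as a covariate and 0.0302 without the left-foot mice. Between campaigns, limma on log2(TPM + 1) and on log2(TPM + 0.1) called Irf3, and edgeR and DESeq2 did not.

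Ifitm3, a membrane protein that blocks virus entry, was the pathway gene with the clearest course (ENSMUSG00000025492, chromosome 7, 141009586 to 141010770, minus strand). Its CPM was 22.3, 13.6 and 20.0 at 0 h, 41.8, 46.1 and 44.4 at 3 d, 48.4, 39.7, 36.2, 38.9, 84.5 and 51.5 at 7 d and 28.8, 21.5 and 17.9 at 21 d. All mice at 3 d and 7 d were above all mice at 0 h, and those at 21 d overlapped 0 h. Of all tested genes, 15.2% showed no overlap between 3 d and 0 h, in either direction, and the share at 7 d is not given here. It rose by a log2 fold change of 1.24 (SE 0.28, adjusted p = 0.0292) at 3 d and 1.42 (SE 0.25, adjusted p = 0.00116) at 7 d, with an adjusted p of 0.00310 over the course, and at 7 d without replicate 3 it was 1.5 (adjusted p = 0.000664). In the earlier campaign, the 3 d mice had 46.1 and 44.4 CPM against 20.0 at 0 h, and with campaign as a covariate the adjusted p was 0.0232 at 3 d and 0.000692 at 7 d. The call at 3 d was lost without any 1 of the 3 mice at 0 h, or of replicates 2 and 3 at 3 d, with adjusted p up to 0.257, and that at 7 d was kept in all 30 such fits. Of its 31-base words, 20.5% occur in other genes. Its RefSeq promoter held 2 ISRE matches and 1 GAS match, and both ISRE matches lay after the start, whereas those of the members lay before it.

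Markers of several cell types were also higher at 3 d and 7 d than at 0 h, but not all shared the later course of Ifitm3. The 4 general leukocyte genes summed to 31.5 to 39.3 CPM at 0 h, 74.6 to 122 at 3 d and 50.8 to 199 at 7 d. Over 9 neutrophil genes the sum was 16.0 to 33.5 at 0 h, 56.1 to 124 at 3 d and 76.4 to 254 at 7 d, and S100a8 and S100a9 were called at both times. Median TPM was 95.7 for S100a9 and 39.5 for S100a8, against 12.2 for Cxcr2 and 2.31 for Csf3r. The rest of this list was often absent, with Ngp at 0 in 26 libraries, Ltf in 25, Camp in 24, Retnlg in 14 and Mmp8 in 8. The 10 monocyte and macrophage genes summed to 126 to 151 at 0 h, 145 to 299 at 3 d and 130 to 477 at 7 d, while 10 genes of T and NK cells gave 3.04 to 10.0, 3.64 to 7.96 and 0.506 to 8.22. The 8 bone cell genes summed to 201 to 428 CPM at 0 h, 551 to 1095 at 3 d and 1732 to 2907 at 7 d, and Ctsk was called at 3 d, and Acp5, Ctsk and Ibsp at 7 d, all higher. Of the fibroblast genes Col1a1 and Col3a1, and of the endothelial genes Cdh5, were called at 7 d. The 6 endothelial genes summed to 130 to 149 CPM at 0 h, 165 to 210 at 3 d and 177 to 266 at 7 d. At 21 d, where Ifitm3 overlapped 0 h, the leukocyte sum was 35.3 to 55.4 CPM and the bone cell sum 3061 to 4265. The endothelial sum was then 140 to 165 CPM, the monocyte and macrophage sum 112 to 187 and the neutrophil sum 18.9 to 100. The 5 fibroblast genes had a mean sum of 4796 CPM at 0 h and 30307 at 21 d. The 9 keratinocyte genes went the other way, with mean sums of 72359 CPM at 0 h, 46445 at 3 d and 53778 at 7 d. The part of these cells in the level of Ifitm3 was not tested.

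The remaining lists of response genes gave few calls. Of 27 tested genes of the type I response, edgeR called Ifitm3 alone over the course, and 4 had an unadjusted p under 0.05. Lgals3bp, which encodes a secreted glycoprotein, was called as well by DESeq2, with campaign as a covariate, and without the left-foot mice or 7 d replicate 3. Among 17 tested genes of the interferon-gamma response, edgeR called the GTPase gene Gbp2 alone (adjusted p = 0.0342), and the next was Cd274, which encodes PD-L1, at 0.0764. DESeq2 also called Cd274 and Psmb8, and edgeR called Cd274 with the stricter filter on low counts. Gbp2 CPM was 4.88, 4.37 and 6.88 at 0 h, 12.8, 12.9 and 14.7 at 6 h and 4.91, 5.58 and 5.34 at 3 d, with all 6 h mice above all 0 h mice. Of all tested genes, 17.8% showed no overlap between 6 h and 0 h, in either direction. At 6 h its log2 fold change was 1.33 (SE 0.44, adjusted p = 0.357), and the call over the course was lost in 14 of 30 fits without 1 mouse. For the enzymes that attach or remove Isg15, 0 of 4 were called by edgeR, DESeq2 or limma or had an unadjusted p under 0.05 by edgeR, with the lowest adjusted p at 0.523 for the ligase Herc6 and 0.659 for the protease Usp18. The 5 feedback inhibitors gave 0 likewise, the lowest being 0.244 for Socs3 and 0.417 for Ptpn6.

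**Figure D4:**
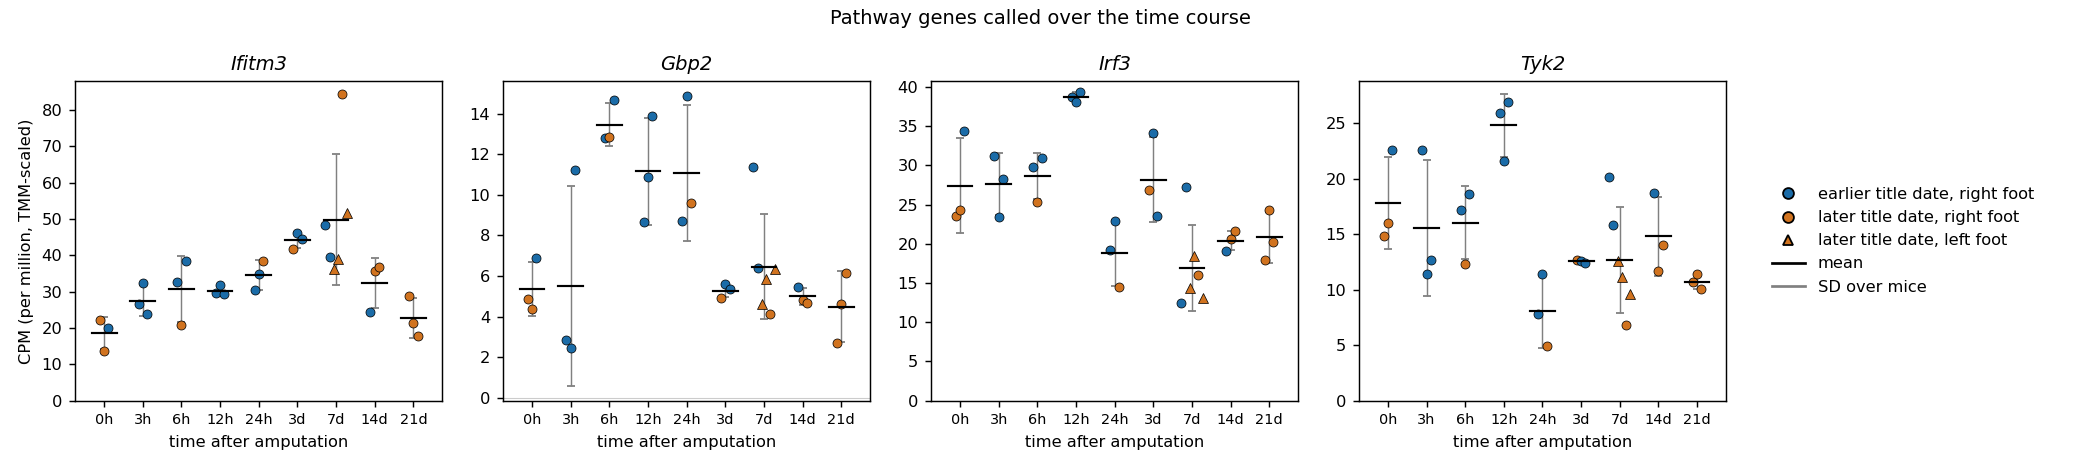
CPM (vertical axes from 0) of Ifitm3, Gbp2, Irf3 and Tyk2, the pathway genes called over the course, in each mouse by time after amputation, with symbols as for the 7 genes by mouse. Ifitm3 is highest at 3d and 7d, Gbp2 from 6h to 24h, and Irf3 and Tyk2 at 12h, where all mice are of the earlier campaign.

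With time in the model, 13 of the 83 pathway genes differed between campaigns (15.7%, against 24.1% of all genes), 12 lower and 1, Ifitm2, higher in the later campaign. The 6 with the lowest p were Ifngr1, Jak1, Tapbp, Jak2, Eif2ak2 and Tyk2, all lower, and Ifngr1 differed most clearly, by -0.66 on the log2 scale (SE 0.11, adjusted p = 3.6e-05). The left-foot mice are all of the later campaign, at 7 d beside replicate 5, a right-foot mouse of that campaign, and foot was not tested. Without the left-foot mice, edgeR called 12 pathway genes between campaigns.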

How the data were processed

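RNA of 30 amputated mouse digits was sequenced as single-end reads of 65 bases from polyA RNA after 18 cycles of amplification (LM-Seq, which adds no molecular identifiers). Base calls were made with CASAVA 1.8.2 per the labels. The authors mapped reads to Ensembl mouse genes with Bowtie, allowing 2 mismatches and up to 200 hits per read, and estimated with RSEM 1.2.3 the expected counts they deposited, which are not normalized. The TPM deposited per mouse, from the same step, are scaled to gene length and to the sum over genes in each mouse. Averages of TPM per time that the authors deposited were not used. Since RSEM divides reads that hit several genes, values of near copies depend on that division. The genome build in the submitters' notes is mm10, and coordinates are those of GRCm38. Of the expected counts, 78.1% are whole numbers.

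Expected counts were rounded and tested with edgeR 4.0.16 (R 4.3.3) with TMM scaling, its filter for low counts by time, quasi-likelihood tests and Benjamini-Hochberg adjustment over all 13793 genes tested, at 0.05, in a single fit of all mice without covariates. CPM are counts scaled to a common library size after TMM. Depths of 3167625 to 16277816 counts per mouse and 1 to 34.2 median counts per member limit precision. The floor of 3 counts and the exact Poisson 95% intervals of Cxcl10 cover counting error only. The 95% confidence intervals of the fold changes come from edgeR's fit and include the spread between mice. The 39 pairs of mice of 1 time had a chi-square per degree of freedom of 9.83 to 94.7, so no library appeared to be deposited again within its time. Across times, only 0 h replicate 3 and 12 h replicate 2 were compared in this way. Groups came from the labels, whose replicate numbers were given here in accession order. Alternatives were DESeq2 1.42.0 (its size factors, and its test), no filter or at least 10 counts in 15 libraries, a threshold of 0.01, campaign as a covariate, no left-foot mice, each mouse left out, fits of 2 times alone, and limma 3.58.1 on log2(TPM + 1) or log2(TPM + 0.1). Permutations, pairs and sequence searches used Python 3.11.15, numpy 2.4.6, scipy 1.17.1 and pandas 2.3.3, with 100000 resamples, two-sided except for F, and plots used matplotlib 3.10.9. The code was tested on simulated data.

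The members and all gene lists were chosen with earlier results of these data known. Named genes are the members, of each other list the genes with an adjusted p under 0.05 (at most 6 by lowest p, otherwise the 2 of lowest p), the 10 genes most like the members' mean, and near copies. Cxcr3, Ptprc, Krt14 and other markers are given as levels. The values of 1 listed pathway gene are not reported here.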

Additional observations from a re-analysis of the deposited data

Results flagged for a closer look

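Only the 7 d group is large enough to look for a mouse that lies apart. For 12 measures, the gap between the extreme mouse and its nearest neighbour was divided by the range of the 6 mice and set against Dixon's 95% limit. For Ifit3 on the log2(CPM + 1) scale, replicate 3 was lowest with a ratio of 0.924, at 0 CPM against 5.57 to 6.66 in the other 5 mice. For the number of genes with a count, replicate 3 was lowest with a ratio of 0.662, at 12191 against 13937 to 14830. The other 10 measures stayed under the limit, and chance passes about 1 in 20 groups. In that library Ifit3b held 73.0 counts.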

How the results depend on the processing

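Under every alternative, 0 members were called over the course, against 0 h, between neighbouring times and between campaigns, with DESeq2's test, its size factors, limma, other filters, the covariate, the left-foot mice or 7 d replicate 3 removed, each mouse left out and the copies of Ifit3 summed. Of 717 alternative values of the 48 fold changes, 0 passed the threshold and 10 moved by at least 1 standard error, and 27 of the 48 changed sign in some setting, which at counts this low sets no direction for a single member. In fits of only 2 times, members under the filter gave no value. Isg15 at 7 d was -2.15 and Ifit3 at 6 h -1.58 with limma on log2(TPM + 0.1), and Ifit1 at 6 h -0.90 with limma on log2(TPM + 1).

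The number of member pairs that passed went from 1 to 0 without the 2 farthest mice (Ifit3 and Rsad2, r = 0.60), within the earlier (0.31) or later (0.98) campaign, on log2(TPM + 1) (0.60, adjusted p = 0.0691), without 7 d replicate 3 (0.49) and with Ifit3 summed with Ifit3b (0.39), where fewer mice or other counts entered.

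Of the 83 other pathway genes, 4 were called over the course, 10 by DESeq2 (Cd274, Dhx58, Il10rb, Lgals3bp, Myd88 and Psmb8 besides the 4), 6 with the stricter filter (Cd274 and Dhx58 besides the 4), 6 with the covariate (Ifngr1, Irf9 and Lgals3bp besides Ifitm3, Irf3 and Tyk2) and 2 at 0.01. At 7 d against 0 h, edgeR called 1 and DESeq2 4 (Cd274, Psmb8 and Tmem173 besides Ifitm3), and between campaigns edgeR called 13, DESeq2 17 and limma on log2(TPM + 1) 26. Gbp2 had an adjusted p of 0.0578 with the covariate and 0.0527 with limma at a pseudocount of 0.1. Tyk2 had 0.0509 with no filter, 0.0667 without left-foot mice, and 0.0984 and 0.124 with limma. The cause was not tested. No paired analysis was possible because the replicate numbers come from accession order and, as far as the labels say, each mouse gave 1 digit at 1 time. The titles of 0 h replicate 3 and 12 h replicate 2 are the same beyond the time, and whether they share a mouse is not given in the sources used here. Their counts had a chi-square per degree of freedom of 23.7, within the range of mice of 1 time, and 1 such pair allows no block.

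At a median of 1 to 34.2 counts per member, 1 count more or less moves a value, and the biological coefficients of variation of the 6 tested members were 59.0% to 71.3%.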

Other observations

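The mouse with the highest value was tallied for each interferon pathway gene, after the values were seen. The 6 mice at 7 d together held the highest CPM of 42 of the 83 tested pathway genes besides the members (50.6%) and of 30.3% of all tested genes. Of these 83, 17 (20.5%) had their highest CPM of all 30 mice in 7 d replicate 2, where 4.90% of all tested genes were highest. They include the RNA sensors Ddx58, Dhx58 and Ifih1, the synthetase Oas2, the ligase Herc6, and Samd9l, Parp14, Trim30a and the immunoproteasome subunit Psmb8. Among the members, Oasl2 was highest in the same mouse, at 8.10 CPM, while Rsad2 was at 0.844 and Isg15 at 1.52 there. By contrast, 21 d replicate 3 was highest for Ifit3 (13.2 CPM) and Rsad2 (9.92 CPM) but for 1 of the 83, Mx2, and 7 d replicate 3 for Ifit1 and 11 of the 83 (13.3%), near its 12.4% of all tested genes. These are descriptions of single libraries with no test.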
